A study of Mus musculus with 8 samples.

Results

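The contractile thin filament of the heart is switched on and off by troponin and tropomyosin, and the 9 genes described here encode their isoforms: Tnnt1, Tnnt2, Tnni1, Tnni3 and Tnnc1 of troponin, and Tpm1, Tpm2, Tpm3 and Tpm4 of tropomyosin. The genes were taken by symbol from 18193 genes with a probe set of their own on the array, and each is read by whichever of its probe sets had the highest mean over all arrays. Together the 9 genes have 21 probe sets. Of the 9 genes, 8 lay above the filter on low values, a log2 value of 5 in at least 4 arrays, which 9607 genes of the array passed, and Tnni1 did not.

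Troponin is a complex of 3 subunits. Troponin C binds calcium, troponin I holds the filament off, and troponin T ties the complex to tropomyosin, a coiled coil that lies along actin and covers the sites for myosin until calcium rises. The adult mouse ventricle is known for the cardiac forms Tnnt2 and Tnni3 and for Tpm1, while Tnni1, the slow skeletal troponin I, is the form of the fetal heart that is replaced after birth. Tnnt1 encodes slow skeletal troponin T, Tpm2 is best known from slow muscle and smooth muscle, and Tpm3 and Tpm4 give tropomyosins of slow muscle and of the cytoskeleton of non-muscle cells.

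RNA came from ventricles of 8 male FVB mice aged 8 to 12 weeks, taken 1 week after the ascending aorta was banded, which raises the pressure against which the left ventricle ejects. By their labels 4 mice carried CHF1/Hey2, a transcriptional repressor, under the mlc2v promoter, which acts in heart muscle, and the other 4 were wild type; transgenic below means an array labelled so. All 8 hearts were banded, so no value below is a response to banding; unbanded hearts were not analysed here. Each mouse gave 1 Affymetrix Mouse Genome 430 2.0 array. Values are log2 expression, 1 unit being a 2-fold change, and differences are given as transgenic minus wild type.

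The arrays were not equally alike. In transgenic replicate 2, 37.2% of 9607 genes were more than 2-fold away from their median in the remaining arrays. Transgenic replicate 3 had a share of 9.27%, and the other 6 arrays had shares from 0.749% to 1.55%. Results are therefore also given without these 2 arrays. The single Hey2 probe set, 1418106_at, had no higher level in the transgenic group: it read 5.87, 5.70, 6.26 and 6.02 in transgenic replicates 1 to 4 and 5.89, 5.96, 5.68 and 6.76 in wild-type replicates 1 to 4. The difference was -0.11 (95% confidence interval -0.70 to 0.48; limma adjusted p = 0.889 over 16017 probe sets). Hey2 therefore does not bear out the labels, on which every direction below rests, and no label says whether transcripts of the transgene match this probe set. All 10 cardiomyocyte markers were above the filter, whereas the 8 markers of skeletal muscle other than Ckm, which heart muscle shares, were below it in every array. The fast skeletal genes of the family, Tnnt3, Tnni2 and Tnnc2, were among these 8.

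The promoters of 4 of the genes are shown because 3 of them, those of Tnnt2, Tnnc1 and Tpm1, hold the MCAT letters CATTCC that TEAD factors bind in muscle genes, and the fourth belongs to Tnnt1, the gene with the largest group difference below. Each is the 250 bases before the annotated start in RefSeq, build GRCm38.p6, written 5′ to 3′ on the strand of the gene, with capitals for letters that match a searched motif on either strand. The Tnnt2 promoter (the first of 2 annotated starts) is chr1:135836084-135836333 on the plus strand, that of Tnnc1 is chr14:31208062-31208311 on the plus strand, that of Tpm1 is chr9:67049214-67049463 on the minus strand and that of Tnnt1 is chr7:4515976-4516225 on the minus strand.
Tnnt2: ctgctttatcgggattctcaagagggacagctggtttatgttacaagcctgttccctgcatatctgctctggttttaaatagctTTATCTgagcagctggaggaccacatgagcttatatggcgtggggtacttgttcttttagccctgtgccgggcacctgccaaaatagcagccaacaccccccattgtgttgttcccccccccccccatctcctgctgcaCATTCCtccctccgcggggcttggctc
Tnnc1: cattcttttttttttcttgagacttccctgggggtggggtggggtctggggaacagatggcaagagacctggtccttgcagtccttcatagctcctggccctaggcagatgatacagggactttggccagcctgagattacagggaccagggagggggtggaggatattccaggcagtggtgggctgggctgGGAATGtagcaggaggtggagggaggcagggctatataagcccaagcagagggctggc
Tpm1: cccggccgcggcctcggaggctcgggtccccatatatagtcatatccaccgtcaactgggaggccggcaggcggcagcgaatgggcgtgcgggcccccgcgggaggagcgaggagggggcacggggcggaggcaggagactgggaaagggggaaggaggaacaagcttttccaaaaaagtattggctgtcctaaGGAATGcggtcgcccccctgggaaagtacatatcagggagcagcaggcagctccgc
Tnnt1: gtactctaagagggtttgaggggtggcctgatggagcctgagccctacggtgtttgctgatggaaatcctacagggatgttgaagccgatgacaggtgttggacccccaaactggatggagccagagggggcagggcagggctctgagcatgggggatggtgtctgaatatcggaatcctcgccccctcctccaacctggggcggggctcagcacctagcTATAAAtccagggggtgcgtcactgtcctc
With the base before the start as position -1, the MCAT letters span -27 to -22 in Tnnt2, -58 to -53 in Tnnc1, where they lie on the opposite strand as GGAATG, and -56 to -51 in Tpm1, again as GGAATG. The other capitals are a GATA motif in Tnnt2 at -166 to -161 and the TATA box letters TATAAA in Tnnt1 at -30 to -25.

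All 9 genes had a promoter in the table, 12 annotated starts in all. The MCAT letters were in 3 of these 12, against 12.6% of 32851 mouse promoters of the same length. A GATA motif (the letters GATA after A or T and before A or G) was in 2 of 12, those of Tnnt2 and Tpm3, against 26.5%, and TATAAA was in 1, against 12.4%. The letters CACGTG and CACGCG, of the E-box kind that hairy-related repressors such as CHF1/Hey2 are known to bind, were in 0 of 12 promoters, against 6.02% and 7.62% of all promoters. The CArG box and the MEF2 box were in 0 of 12 as well, against 1.47% and 2.92%. These are matches of letters in a short window and show neither binding nor its absence. In the RefSeq gene order Tnnt1 and Tnni3 are direct neighbours on chromosome 7, and Tnni1 and Tnnt2 lie on chromosome 1 with the gene Lad1 between them.

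No gene of the troponin and tropomyosin set passed the comparison of the 2 genotypes. With limma and Benjamini-Hochberg adjustment over 9607 genes, 0 of the 8 genes tested had an adjusted p under 0.05, as did 0 of all genes (0%), and 0 of the 8 had an unadjusted p under 0.05, which 1.59% of all genes had. The transgenic SD exceeded the wild-type SD for 6 of the 8 genes, beside 89.1% of all genes. The median SD of all genes was 0.491 in the transgenic group, 0.237 there without replicate 2, and 0.186 in wild type. Of the 8 differences 5 were positive and 3 negative, with a median of 0.02, beside a median of 0.06 and 57.0% positive among all genes. For each of the 8 genes the values of the 2 groups overlapped, while 2.48% of all genes had groups that did not. The 4 genes above 14 differed by at most 0.07 in either direction, Tnnt1 by 0.53 and Tpm4 by -0.30.

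**Figure D1:**
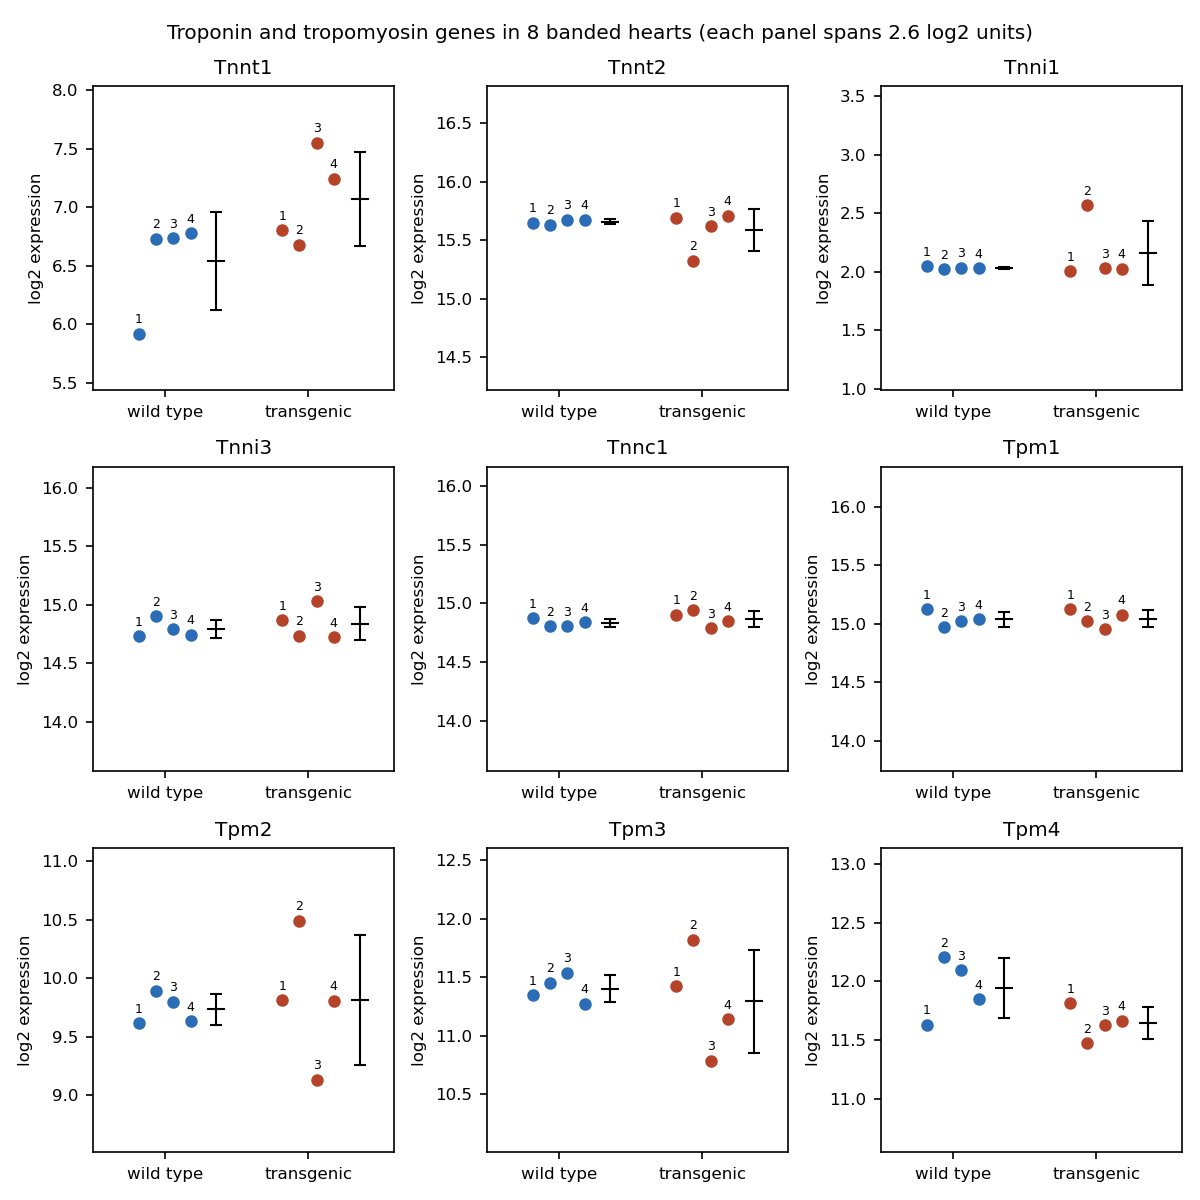
Log2 expression of the 9 genes in each array, wild type in blue and transgenic in red, with replicate numbers above the points and the mean and SD (n = 4) to the right of each group. Every panel spans the same number of log2 units, so the flat rows of Tnnt2, Tnni3, Tnnc1 and Tpm1 can be set against the wider scatter of Tnnt1, Tpm2 and Tpm3, where transgenic replicates 2 and 3 lie at the edges of Tpm2 and Tpm3; Tnni1 lay between 2.01 and 2.57.

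Of the troponin T genes, Tnnt2, the cardiac form that anchors troponin to tropomyosin, was steady except in a single array. Its probe set 1418726_a_at read 15.69, 15.33, 15.62 and 15.71 in transgenic replicates 1 to 4 and 15.65, 15.63, 15.68 and 15.68 in wild-type replicates 1 to 4. Transgenic replicate 2 was the lowest of the 8, and the other 7 lay within a range of 0.09. The means were 15.59 ± 0.18 and 15.66 ± 0.02 (SD, n = 4 each), and the difference of -0.07 (95% confidence interval -0.42 to 0.27; limma adjusted p = 0.871; exact two-sided permutation p = 0.771) was smaller than the transgenic SD. Without transgenic replicate 2 the sign turned, to 0.01. With 4 arrays against 4 the exact permutation test cannot go below p = 0.0286.

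The other Tnnt2 probe sets split into one that followed the first and one that did not. Probe set 1424967_x_at had means of 15.51 ± 0.18 and 15.59 ± 0.07 (SD, n = 4 each) and again its lowest value, 15.25, in transgenic replicate 2. Probe set 1440424_at read 10.87, 11.15, 10.89 and 9.75 in transgenic replicates 1 to 4 and 10.63, 10.27, 9.88 and 10.94 in wild-type replicates 1 to 4, so transgenic replicate 2 was here the highest array, and transgenic replicate 4 and wild-type replicate 3 were the lowest. Its difference of 0.23 (SE 0.353; limma adjusted p = 0.839 over 16017 probe sets) became 0.54 without transgenic replicate 4 and -0.13 without transgenic replicates 2 and 3. Probe sets of 1 gene can read different stretches or isoforms of its transcripts, and the annotation used here does not say which.

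Tnnt1, slow skeletal troponin T, had the largest difference of the set. It read 6.80, 6.68, 7.55 and 7.24 in transgenic replicates 1 to 4 and 5.92, 6.73, 6.74 and 6.78 in wild-type replicates 1 to 4. Replicates 3 and 4 of the transgenic group were the highest arrays and wild-type replicate 1 stood alone at the bottom, while the remaining 5 arrays lay between 6.68 and 6.80. The means of 7.07 ± 0.40 and 6.54 ± 0.41 (SD, n = 4 each) differed by 0.53 (SE 0.276; 95% confidence interval -0.10 to 1.16), which is 1.44-fold higher in the transgenic group, and the difference did not pass (limma adjusted p = 0.813, 0.489 to 1.00 over its alternatives; exact two-sided permutation p = 0.171).

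The size of the Tnnt1 difference rested on a few arrays, though its sign did not change under any alternative tried. Without wild-type replicate 1 the difference was 0.32, and without transgenic replicate 2 it was 0.66, with an unadjusted limma p of 0.0381 and an adjusted p of 0.944. Without both transgenic replicates 2 and 3 it was 0.48. With array weights it was 0.25, the lowest of its alternatives. Of 4 markers of atrial muscle, 3 had a higher transgenic mean: Myl7, Myl4 and Sln differed by 0.71, 0.67 and 0.64. The fourth, Nppa, differed by -0.44, and lay at -2.03 from its wild-type mean in transgenic replicate 3. The median distance of the 4 from their wild-type means was 0.08, 0.84, 0.66 and 0.70 in transgenic replicates 1 to 4. In wild-type replicate 1, the lowest array for Tnnt1, this median was 0.41. All 4 atrial markers were above the filter in these samples, and their part in the Tnnt1 values was not tested.

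Set against Tnnt2 in the same array, Tnnt1 gave log2 ratios of -8.89, -8.65, -8.07 and -8.47 in the 4 transgenic arrays, in order of replicate, against -9.73, -8.90, -8.94 and -8.90 in wild type. These ratios are read only across arrays, since 2 probe sets do not share a scale. The group means differed by 0.60, and the groups did not overlap, but the lowest transgenic ratio, in replicate 1, lay only 0.012 above the highest wild-type ratio, in replicate 2. Without wild-type replicate 1 the means differed by 0.40. Among single genes, 2% had groups that did not overlap with the transgenic side higher, and the share among ratios of 2 genes was not computed. With quantile normalization of the arrays the ratios overlapped. No test was made of the ratios.

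**Figure D2:**
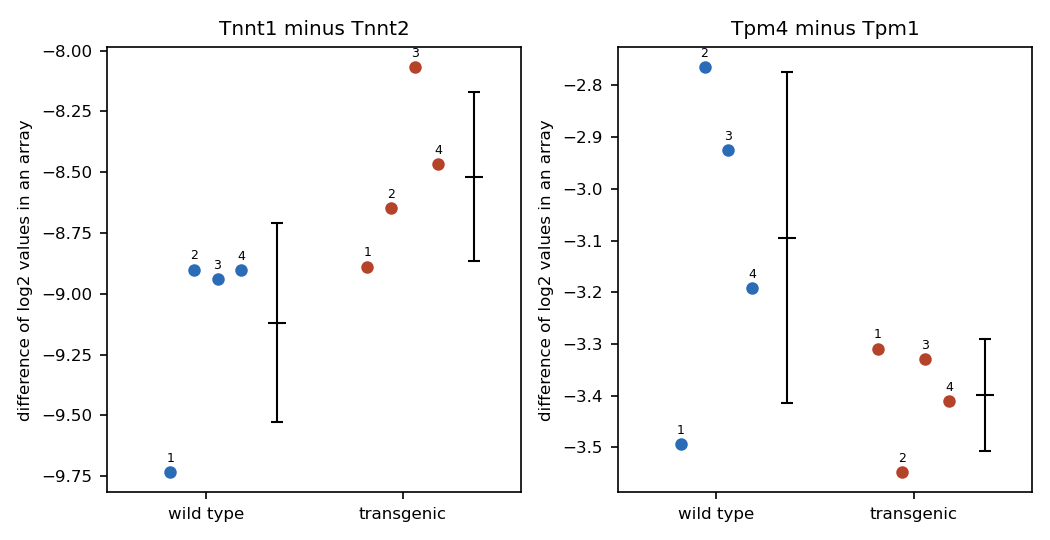
Difference of 2 log2 values within each array, Tnnt1 minus Tnnt2 on the left and Tpm4 minus Tpm1 on the right, with replicate numbers and group mean ± SD (n = 4). The transgenic ratios of Tnnt1 to Tnnt2 begin at -8.89, next to the wild-type values of -8.90, with wild-type replicate 1 apart at -9.73; on the right wild-type replicate 1, at -3.49, lies among the transgenic values.

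Of the troponin I genes, Tnni3, the cardiac inhibitory subunit and a target of protein kinase A, read 14.87, 14.73, 15.03 and 14.72 in transgenic replicates 1 to 4 and 14.73, 14.90, 14.79 and 14.74 in wild-type replicates 1 to 4. Transgenic replicate 3 was the highest array, and the groups were mixed below it. The means of 14.84 ± 0.14 and 14.79 ± 0.08 (SD, n = 4 each) differed by 0.05 (95% confidence interval -0.29 to 0.39; limma adjusted p = 0.910), and by -0.02 without transgenic replicate 3.

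Tnni1, the fetal and slow skeletal troponin I, lay near the floor of the scale. Its only probe set read 2.01, 2.57, 2.03 and 2.03 in transgenic replicates 1 to 4 and 2.05, 2.02, 2.04 and 2.03 in wild-type replicates 1 to 4. Transgenic replicate 2 was higher than the other 7 arrays, which spanned 0.04. The gene was below the filter in all 8 arrays, where differences have little meaning, so no test is given and its ratio to Tnni3 is not read. The fast skeletal genes lay at a like level, Tnnc2 between 2.32 and 2.39, Tnnt3 between 2.84 and 3.03 and the probe sets of Tnni2 between 2.29 and 3.10.

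Tnnc1, troponin C of heart and slow muscle and the calcium sensor of the filament, had little spread in either group. It read 14.90, 14.94, 14.79 and 14.85 in transgenic replicates 1 to 4 and 14.87, 14.81, 14.81 and 14.84 in wild-type replicates 1 to 4. Transgenic replicate 2 was the highest array and transgenic replicate 3 the lowest, with the wild-type arrays between them. The means of 14.87 ± 0.07 and 14.83 ± 0.03 (SD, n = 4 each) differed by 0.04 (95% confidence interval -0.27 to 0.35, limma adjusted p = 0.916).

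Tpm1, the striated muscle tropomyosin of the ventricle, read 15.12, 15.02, 14.95 and 15.08 in transgenic replicates 1 to 4 and 15.13, 14.97, 15.02 and 15.04 in wild-type replicates 1 to 4 on its highest probe set, 1423049_a_at. No array stood apart. The means of 15.04 ± 0.07 and 15.04 ± 0.06 (SD, n = 4 each) differed by 0.0047 (95% confidence interval -0.31 to 0.32, limma adjusted p = 0.993). The limma fit draws on the variance of all genes, so the intervals of Tpm1, Tnnt2, Tnni3 and Tnnc1 do not measure their own spread alone. For Tpm1 the SE was 0.138, and 0.070 with a trend in the variance and a robust prior. Normalization by quantiles holds the top of the scale alike across arrays. Tnnt2, Tnni3, Tnnc1 and Tpm1 all lay between 14.72 and 15.71 in every array. Their narrow spread therefore has to be read with that of their neighbours on the scale. Of 113 genes with a mean above 14, 5.31% lay over 2-fold off in transgenic replicate 2 and 8.85% in transgenic replicate 3. Of these 4 genes 0 did in either, which at such low shares does not set them apart.

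The 3 other Tpm1 probe sets varied more and not in parallel. Probe set 1456623_at read 8.91, 8.79, 7.97 and 7.67 in transgenic replicates 1 to 4 and 8.90, 8.53, 7.55 and 8.93 in wild-type replicates 1 to 4, so its low arrays were transgenic replicates 3 and 4 and wild-type replicate 3. Its low arrays of wild-type replicate 3 and transgenic replicate 4 were also those of the Tnnt2 probe set 1440424_at. Probe set 1447713_at was highest in transgenic replicates 2 and 3, at 11.14 and 11.05, and 1423721_at was lowest in transgenic replicate 3, at 9.21. The differences of these 3 probe sets were -0.14 (SE 0.396), 0.11 (SE 0.214) and -0.02 (SE 0.181), each smaller than the SD of either group. Across both genes 0 of 7 probe sets passed (limma, adjusted p of 0.839 or more over 16017 probe sets).

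**Figure D3:**
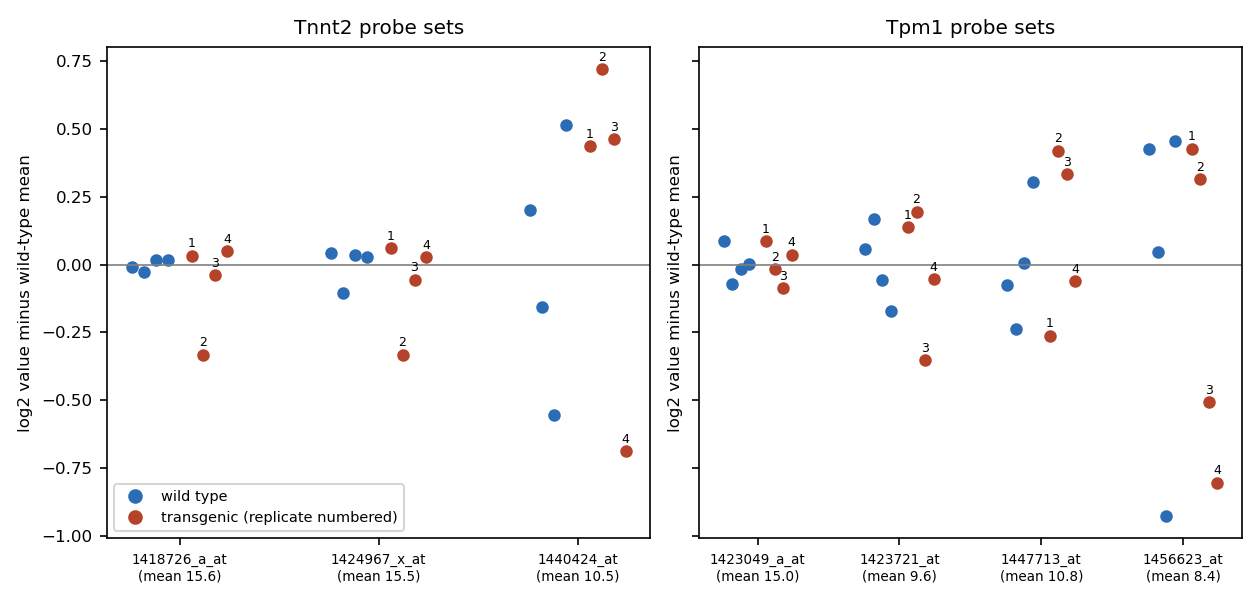
Each probe set of Tnnt2 and Tpm1 as log2 value minus its wild-type mean, wild type in blue and transgenic in red with replicate numbers, and the mean log2 level of the probe set under its name. The 3 probe sets with means above 15 are narrow apart from transgenic replicate 2 in Tnnt2, and 1440424_at and 1456623_at scatter over more than 1 log2 unit in both groups.

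Tpm2 and Tpm3 had near-equal group means but the widest transgenic scatter of the set. Tpm2 read 9.81, 10.49, 9.13 and 9.81 in transgenic replicates 1 to 4 and 9.62, 9.89, 9.80 and 9.63 in wild-type replicates 1 to 4. Tpm3 read 11.42, 11.82, 10.79 and 11.14 in transgenic replicates 1 to 4 and 11.34, 11.45, 11.54 and 11.27 in wild-type replicates 1 to 4. In both genes transgenic replicate 2 was the highest of all 8 arrays and transgenic replicate 3 the lowest, with the wild-type arrays in between.

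The Tpm2 means of 9.81 ± 0.56 and 9.74 ± 0.13 (SD, n = 4 each) differed by 0.08 (95% confidence interval -0.55 to 0.70; limma adjusted p = 0.921). Those of Tpm3 were 11.29 ± 0.44 and 11.40 ± 0.12 (SD, n = 4 each), and differed by -0.11 (95% confidence interval -0.64 to 0.42; limma adjusted p = 0.871). The difference of Tpm2 was -0.15 without transgenic replicate 2 and 0.30 without replicate 3, and that of Tpm3 was -0.29 and 0.06. Without both they were 0.07 and -0.12.

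Transgenic replicate 2 was the highest array on 4 other probe sets of these genes, and transgenic replicate 3 was the lowest on 2 of the 4. Probe set 1425028_a_at of Tpm2 read 10.66 and 9.17 in these arrays, and 1436958_x_at of Tpm3 read 7.99 and 7.21, the highest and lowest values of each. On 1427567_a_at of Tpm3 transgenic replicate 2 read 9.73, but transgenic replicate 4, at 8.03, was below replicate 3, at 8.20. On 1449577_x_at of Tpm2 transgenic replicate 2 read 7.14, and wild-type replicate 2, at 5.76, was below transgenic replicate 3, at 5.79. Probe set 1419739_at of Tpm2 and 1449997_at of Tpm3, whose values were between 5.63 and 6.46, stayed within 0.23 of their wild-type means in these arrays. Probe set 1449996_a_at of Tpm3, also near the filter, had the largest difference among the 20 probe sets tested apart from Tnnt1, at -0.47 (SE 0.313), with wild-type replicate 1 at 6.68 and the other 7 arrays between 5.05 and 5.89. The groups overlapped for all 20, whereas 2.11% of 16017 probe sets had groups that did not. Of the 20 differences 11 were positive and 9 negative, and 0 had an unadjusted limma p under 0.05, against 1.29% of the 16017.

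Tropomyosin genes are also active in smooth muscle and in non-muscle cells such as fibroblasts, endothelium and leukocytes, and markers of these cells differed between the same arrays. Of 8 fibroblast markers all 8 lay below their wild-type mean in transgenic replicate 3, with a median of -1.44, and 5 did in replicate 2, with a median of -0.20. The 5 leukocyte markers had medians of 0.76 in transgenic replicate 2 and -1.18 in replicate 3, where all 5 lay below their wild-type means. In replicate 2 they were split, with Ptprc at -2.71 and Cd68, Adgre1, Csf1r and Cd14 at 1.92, 0.76, 0.90 and 0.41. Of 7 smooth muscle markers 6 were above the filter and Lmod1 was not, and the medians of the 7 were 0.82 in replicate 2 and 0.00 in replicate 3. The smooth muscle markers did not move alike. In transgenic replicate 2 Acta2, Tagln, Cnn1 and Smtn lay 1.08, 0.84, 0.98 and 0.82 above their wild-type means, and Myh11 and Myocd lay at -0.50 and -0.13. In replicate 3 Tagln and Cnn1 lay at -0.72 and -2.70, and Smtn and Myocd at 0.43 and 0.60. Endothelial markers had medians of 0.76 and 0.06. They too were split in replicate 2, with Pecam1, Cdh5 and Emcn at 1.23, 0.80 and 0.76 and Kdr and Tek at -0.33 and -0.19. In the 6 other arrays the medians of these 4 lists lay between -0.28 and 0.38. In bulk ventricle fewer cells of a type and less RNA per cell cannot be told apart, and the part of these cells in the tropomyosin values was not tested.

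**Figure D4:**
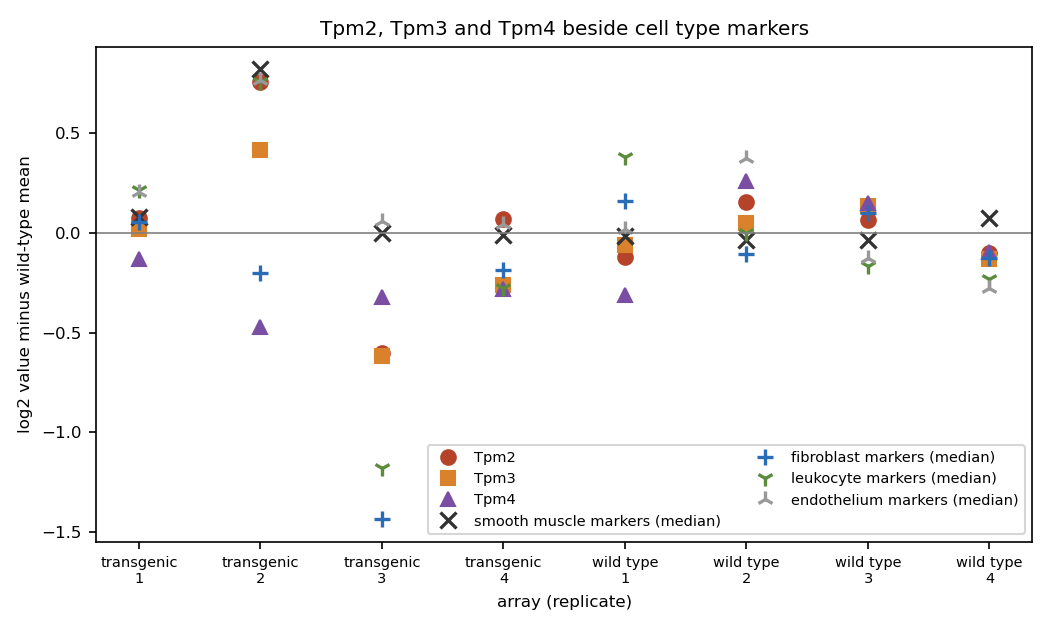
Log2 value minus wild-type mean of Tpm2, Tpm3 and Tpm4 in each array, beside the median of the marker lists of smooth muscle, fibroblasts, leukocytes and endothelium. Tpm2 and Tpm3 lie at 0.76 and 0.42 in transgenic replicate 2, and in replicate 3 at -0.60 and -0.62, whereas Tpm4 is below 0 in all 4 transgenic arrays.

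Tpm4, a tropomyosin of the non-muscle cytoskeleton, had a lower mean in the transgenic group. It read 11.82, 11.47, 11.62 and 11.67 in transgenic replicates 1 to 4 and 11.63, 12.20, 12.10 and 11.85 in wild-type replicates 1 to 4. The 4 transgenic values lay below 3 of the wild-type values, and wild-type replicate 1 lay among them. The means of 11.65 ± 0.14 and 11.95 ± 0.26 (SD, n = 4 each) differed by -0.30 (SE 0.180; 95% confidence interval -0.71 to 0.11), which is 1.23-fold lower, and the difference did not pass (limma adjusted p = 0.813, 0.505 to 1.00 over its alternatives; exact two-sided permutation p = 0.114). It was negative under every alternative tried, from -0.40 without wild-type replicate 1 to -0.16 with array weights. Without transgenic replicates 2 and 3 it was -0.20.

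Ratios within an array were also formed for the tropomyosins. Tpm4 minus Tpm1 was -3.31, -3.55, -3.33 and -3.41 in transgenic replicates 1 to 4 and -3.49, -2.77, -2.93 and -3.19 in wild-type replicates 1 to 4, with means that differed by -0.30. Wild-type replicate 1 lay within the transgenic range. The difference was -0.44 without wild-type replicate 1 and -0.20 without wild-type replicate 2. Tpm2 minus Tpm1 differed by 0.07 and Tpm3 minus Tpm1 by -0.11 between the groups, each less than the transgenic SDs of 0.53 and 0.41.

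**Figure D5:**
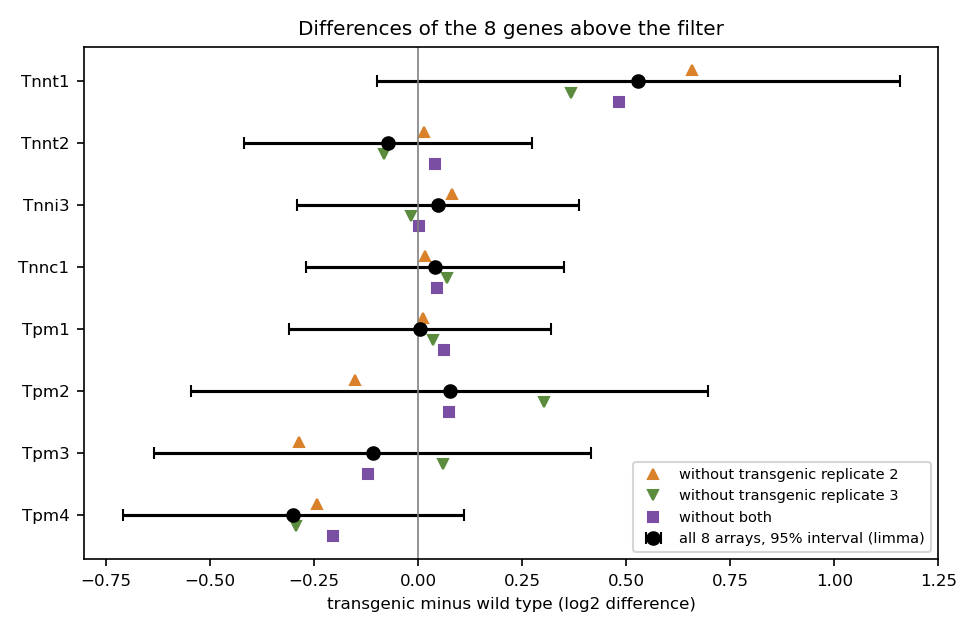
Difference of the group means (transgenic minus wild type, log2) for the 8 genes above the filter, with the 95% confidence interval of limma over all 8 arrays, and the differences without transgenic replicate 2, without replicate 3 and without both. All 8 intervals include 0; Tnnt1 and Tpm4 keep their sign without these arrays, and the signs of Tnnt2, Tnni3, Tpm2 and Tpm3 turn when transgenic replicate 2 or 3 is left out.

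The genes whose values were most like those of a member across the 8 arrays are given as a description, with Pearson's r over 8 arrays and then over the 6 arrays other than transgenic replicates 2 and 3. For Tnnt1 they were AU022252 (0.93 and 0.93), Ak4 (0.92 and 0.89) and 2310001K24Rik (0.90 and 0.94). For Tnnt2 they were Npat, Arglu1 and Fam76b, each at 0.99, with 0.88, 0.89 and 0.92 over 6 arrays. Tnni3 was most like Dhrs4 (0.98 and 0.97), Akap1 (0.96 and 0.88) and Yipf7 (0.95 and 0.85). Tnnc1 was most like Zmym3 (0.96 and 0.90), Igbp1 (0.95 and 0.94) and Arhgap17 (0.95 and 0.86), and Tpm1 like Extl2 (0.96 and 0.95), Lmbr1 (0.94 and 0.99) and BC005537 (0.94 and 0.92). Tpm2 was most like Lxn, Dcaf15 and Cd248, a gene of stromal cells, each at 0.99, with 0.88, 0.82 and 0.91 over 6 arrays. Tpm3 was most like Rcn3 (0.98 and 0.91), Pxdn, a peroxidase of the extracellular matrix (0.97 and 0.86), and Ncf4 (0.97 and 0.80). Tpm4 was most like Cd93, an endothelial receptor (0.94 and 0.93), Matn2 (0.92 and 0.88) and Yeats2 (0.87 and 0.95). All 5 endothelial markers had a higher transgenic mean, with a median difference of 0.17, and Tpm4 had a lower one. The part of endothelial cells in the Tpm4 values was not tested.

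The correlations share the arrays that stand apart, and with so few arrays high values of r arise readily among 9607 genes. Within the set, Tpm2 and Tpm3 had r = 0.91 over 8 arrays and 0.33 over the 6 others. Tnnc1 and Tpm1 had 0.59 and 0.93, and Tpm1 and Tpm4 -0.28 and -0.87. The neighbouring genes Tnnt1 and Tnni3 had 0.56 and 0.12.

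Genes that work with troponin and tropomyosin did not pass either. Of 31 thin filament partners (actins, caps, leiomodins and binding proteins) 26 were tested, of which 0 passed, 9 had a positive and 17 a negative difference, with a median of -0.04. Those with the smallest p were Capza1, a barbed-end capping subunit, at -0.29, Lmod2, a leiomodin that lengthens thin filaments, at -0.55, Tmod4, a pointed-end cap, at 0.61, and Mybphl at 0.49. Without transgenic replicates 2 and 3 they were at -0.14, -0.07, -0.04 and -0.01.

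Of 25 kinases and phosphatases that act on these proteins 21 were tested, of which 0 passed, 9 positive and 12 negative, with a median of -0.24. Prkar1a, a regulatory subunit of protein kinase A, differed by -0.30 (limma adjusted p = 0.813). It read 13.26, 12.74, 13.24 and 13.16 in transgenic replicates 1 to 4 against 13.32 to 13.57 in wild type. These groups did not overlap, as in 2.48% of all genes in either direction and 0.479% on the lower side. Prkar1a was named for its small p, and the list genes with groups that did not overlap were not counted. Without transgenic replicate 2 the Prkar1a difference was -0.18. Stk4 differed by -0.27, Rock1 by -0.91 and Camk2d by -0.33, and without transgenic replicate 2 by -0.15, -0.02 and -0.02.

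Of 18 splicing factors known to act on sarcomeric transcripts 16 were tested, of which 0 passed, 6 positive and 10 negative, with a median of -0.18. Rbm38 differed by 0.30, Srsf1 by -0.58, Mbnl1, which shifts Tnnt2 splicing from fetal to adult forms, by -0.54 and Ptbp2 by -0.65. Srsf1, Mbnl1 and Ptbp2 were lowest in transgenic replicate 2, at 8.77, 10.72 and 6.44, and differed by -0.02, 0.05 and 0.07 without it. Rbm38 was at 0.17 without transgenic replicate 2 and at 0.0035 without replicates 2 and 3. Of 24 transcription factors known for thin filament genes 20 were tested, of which 0 passed, 13 positive and 7 negative, with a median of 0.15. Tead3, of the family that binds the MCAT letters shown above, differed by -0.32, by -0.34 without transgenic replicates 2 and 3, and by -0.18 without wild-type replicate 3, its highest array at 7.60. Tbx5, Gata4 and Nkx2-5 differed by 0.56, 0.49 and 0.34, or by 0.28, 0.31 and 0.23 without both; without wild-type replicate 3 Gata4 was at 0.32. Without transgenic replicate 2 the medians of the 4 lists were -0.02, 0.04, 0.04 and 0.04, beside 0.03 over all genes. In the main fit no gene of these lists had an unadjusted limma p under 0.05. With array weights 10 of the 83 tested did, beside 1529 of all 9607 genes, so the lists did not stand out.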

How the data were processed

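Ventricular RNA of 8 banded mice was measured, 1 array each. The deposited values are log2 expression, which the authors made with GCRMA (background correction, quantile normalization and probe set summary; version not given in the sources used here), per the submitters' processing notes. They lay between 0.84 and 16.11. Precision is limited by the small number of arrays. Of 45101 probe sets, 34958 have 1 gene symbol in the platform annotation, 932 several and 9211 none; 64 controls were left out. A gene had to exceed 5 in at least 4 arrays and was read by its probe set with the highest mean. Groups came from the titles. The fit was limma 3.58.1 (lmFit, eBayes) in R 4.3.3 on the 8 arrays with genotype alone, and p-values were adjusted after Benjamini-Hochberg, at 0.05, over 9607 genes or, for every probe set, 16017. The members, lists and rules for named genes were chosen with earlier results of these data known. Named were all members, every probe set of Tpm1 and Tnnt2, in each list the 4 genes with the smallest p, and per member the 3 genes with the highest r. Alternatives changed the filter, scaling, variance model, probe set rule and block, and left out each array. Promoters are RefSeq's, GRCm38.p6; no coordinates of the deposited values are used.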

Additional observations from a re-analysis of the deposited data

Results flagged for a closer look

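Among 96 groups of 4 values, 10 held an array that stood apart. Its gap to the nearest other value took up more of the group's range than Dixon's test allows. Chance gives about 1 in 20 for a single group. These groups share arrays and genes, and list genes were named by their p, so the count cannot be judged by that rate. In the transgenic group the array apart was always replicate 2, in which 37.2% of all genes were over 2-fold off. It was apart for Tnni1, at 2.57 beside 2.01 to 2.03, Rock1, at 7.78 beside 11.04 to 11.56, Camk2d, at 8.84 beside 9.96 to 10.14, Mbnl1, at 10.72 beside 12.97 to 13.18, and Ptbp2, at 6.44 beside 9.22 to 9.42. In wild type, replicate 1 was apart for Tnnt1, at 5.92 beside 6.73 to 6.78, for the log2 ratio of Tnnt1 to Tnnt2, at -9.73 beside -8.94 to -8.90, and for Tpm3 probe set 1449997_at, at 6.46 beside 6.07 to 6.08. Wild-type replicate 2 was apart for Tnnt2 probe set 1424967_x_at, at 15.48 beside 15.61 to 15.63, and for Tmod4, at 6.71 beside 6.23 to 6.28.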

How the results depend on the processing

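No member, no probe set of Tpm1 and Tnnt2 and no gene of the lists passed under any alternative run. Over all genes 0 passed in every alternative except array weights, which gave 1, a gene outside the set. Array weights also raised the number of genes with an unadjusted limma p under 0.05 from 153 to 1529 of 9607. Among the 83 list genes tested, that number rose from 0 to 10, and among the 8 members it stayed at 0. With the replicate number as a block 0 genes passed, and Tnnt1 and Tpm4 both had a limma adjusted p of 0.845; same-numbered arrays deviated with correlations between -0.33 and 0.30, so the numbers were not taken as pairs. Tnnt1, Tnnc1 and Tpm4 kept their sign in every alternative. Tnnt2 turned with array weights (0.022), the mean of its probe sets (0.028) and without transgenic replicates 2 and 3 (0.041), and ranged from -0.113 to 0.014 with 1 array left out. Tpm1 turned with the mean of its probe sets (-0.012), median centring (-0.015) and quantile normalization (-0.014), and ranged from -0.022 to 0.035 with 1 array left out. With 1 array left out Tnni3 ranged from -0.017 to 0.086, Tpm2 from -0.152 to 0.301 and Tpm3 from -0.286 to 0.059, and probe set 1424967_x_at from -0.120 to 0.010, 1423721_at from -0.090 to 0.092 and 1456623_at from -0.451 to 0.078. Without transgenic replicates 2 and 3, probe set 1424967_x_at was at 0.043, 1440424_at at -0.126, 1423721_at at 0.041 and 1447713_at at -0.161. The number of log2 ratios whose groups did not overlap, 1 of 5, was 0 with quantile normalization and 1 to 2 with 1 array left out, where Tpm4 to Tpm1 joined without wild-type replicate 1. The cause of these changes was not tested. Signal near the floor limits Tnni1.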
